A study of Mus musculus with 6 samples.

Results

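The 28 genes described here run the G1/S transition and the start of DNA synthesis: Mcm2 to Mcm7, Cdc6, Cdt1, Cdc45, Gins2, Ccnd1, Ccne1, Ccne2, E2f1, Pcna, Rfc2, Pola1, Prim1, Fen1, Rrm1, Rrm2, Tyms, Slbp, Chaf1a, Chaf1b, Uhrf1, Ung and Tipin. They were taken by gene name from 54532 genes with read counts, and all 28 were among the 12491 genes with enough counts to be tested. The cells were RAW264.7 macrophages, an established mouse line that divides in culture, grown in DMEM with serum. RNA was sequenced from 3 libraries labelled as ERMAP knockdown, treated with an shRNA lentivirus, and from 3 libraries labelled WT, called control, for which no shRNA is recorded. The protocol text names the ERMAP lentivirus in every sample, so the labels do not settle whether control cells met a virus, and no control hairpin is named. Since no label ties replicates to separate cultures, the spread behind each p-value may be technical.

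A cell that commits to division does so by raising cyclin D, which with its kinases inactivates the retinoblastoma protein and frees E2F factors. E2F factors then switch on cyclin E, the parts of the replicative helicase, the sliding clamp and the enzymes that make deoxynucleotides. In late mitosis and G1, Cdc6 and Cdt1 load MCM2-7 rings at origins, and Cdc45 and the GINS complex turn them into running helicases at the start of S phase. Primary macrophages mostly rest outside the cycle, whereas a line such as RAW264.7 cycles.

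Summed counts ran from 13447021 to 16602734 per library. Ermap, the gene named in the label, had 10, 21 and 14 counts in the ERMAP shRNA libraries and 12, 12 and 3 counts in control, a log2 fold change of 0.81 (95% interval -0.39 to 2.03, edgeR adjusted p = 0.929). Leaving out 1 library gave values from 0.41 (without control replicate 3) to 1.12 (control replicate 1 left out), none called, and limma-voom with library weights called Ermap higher (1.66, adjusted p = 0.0382). The label is therefore not backed by a lower Ermap count, and each direction given is that of the libraries so labelled relative to control. Summed macrophage markers lay between 7071 and 7196 CPM (counts relative to library size, TMM-scaled) in ERMAP shRNA and between 7042 and 7297 CPM in control, and markers of 6 other cell types summed to at most 0.266 CPM in any library. The macrophage sum rests largely on Lyz2, at 3336 to 3349 CPM in ERMAP shRNA and 3524 to 3918 CPM in control (log2 -0.14, edgeR adjusted p = 0.906). Of the 9 macrophage markers Fcgr1, an Fc receptor, was called higher in both fits (log2 1.64 and 1.70), and Itgam, an integrin subunit named after its value was seen, was lower by unadjusted p in both (log2 -0.33 and -0.19, edgeR adjusted p = 0.671 and 0.231). Control replicate 1 stood apart, with 3.69% of its counts mitochondrial against 1.71% to 2.18% elsewhere, so fold changes of the 28 genes are given with it and without it. In bulk RNA, fewer cells in S phase and less RNA per cell cannot be told apart.

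The G1/S and replication genes lay close together in both groups, and 0 of 28 passed the test in either direction. With edgeR over 6 libraries, adjusted p-values ran from 0.666 to 0.998. Over all tested genes 1.14% were called, 1.01% higher and 0.136% lower, so a list of this size is not set apart by holding no call. At an unadjusted p under 0.05, 2 members were higher and 1 lower in edgeR, DESeq2 and limma-voom, against 3.71% and 3.04% of all tested genes in edgeR. DESeq2 and limma-voom also called 0 members. Of all 12491 tested genes, DESeq2 called 202 higher and 71 lower, and limma-voom 127 higher and 16 lower. Fold changes were small: the log2 values ran from -0.25 (Pcna) to 0.27 (Ccnd1), with a median of 0.11 against -0.01 over all tested genes, and 22 of 28 lay above 0. Of all 12491 tested genes, 6035 lay above 0. For 24 of 28 members the whole 95% interval stayed within a 1.5-fold change either way, which holds for 58.4% of all tested genes. The median interval width was 0.53 in members and 0.75 over all tested genes (log2). Members were also more abundant, 27 of 28 lying above the median FPKM of tested genes, and genes of matched level were not compared.

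Leaving out control replicate 1 narrowed the intervals and again gave 0 called members. Of all tested genes, 4.86% were then called, 2.67% higher and 2.19% lower. The lowest adjusted p among members was 0.111, and all 28 intervals lay within 1.5-fold, which holds for 70.6% of all tested genes. Median interval widths were 0.30 in members and 0.43 over all tested genes, again without matching for level. The median log2 fold change was 0.04, against -0.01 over all tested genes, and unadjusted p-values put 7 members higher and 1 lower, against 7.81% and 8.54% of all tested genes. Above 0 lay 23 of the 28 members and 6216 of 12793 tested genes, and 9 members had changed sign. DESeq2 without this library, a fit added after the data had been seen, also called 0, with 7 higher and 1 lower by unadjusted p. Of all 12793 tested genes DESeq2 then called 308 higher and 208 lower, with 830 and 738 by unadjusted p.

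Summed over the 28 genes, the level was 4987, 4994 and 4925 CPM in the ERMAP shRNA libraries and 4651, 4807 and 4751 CPM in control. The means were 4969 ± 37.7 CPM in ERMAP shRNA and 4736 ± 79.3 CPM in control (SD, n = 3 each). The 3 ERMAP shRNA sums thus lay above the 3 control sums, with no overlap, but the sum is carried by its most abundant members and was given no test. These genes took 0.490% to 0.4996% of the counts in ERMAP shRNA and 0.464% to 0.481% in control. The groups did not overlap in 6 single members, Mcm3, Cdc6, Ccnd1, Ccne1 and Tyms being higher in ERMAP shRNA and Pcna lower, which is 21.4% of members against 14.2% of all tested genes (7.74% higher and 6.47% lower). With control replicate 1 left out, 10 members were higher without overlap and 1 lower, 39.3% against 32.7% of all tested genes (16.6% higher and 16.1% lower).

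The MCM2-7 genes encode the 6 subunits of the ring-shaped helicase that unwinds DNA ahead of the fork. All 6 log2 fold changes were above 0 and 0 were called, with a group median of 0.11, and 0.08 without control replicate 1. Mcm3 (chromosome 1, 20802968 to 20820312, minus strand, mm10) had 389.1, 368.6 and 372.3 CPM in ERMAP shRNA and 312.7, 339.3 and 341.4 CPM in control. Each ERMAP shRNA library thus exceeded each control library, with a log2 fold change of 0.19 (SE 0.09, 95% interval -0.01 to 0.38, edgeR adjusted p = 0.777) over 6 libraries and 0.14 (adjusted p = 0.249) over 5. Mcm5 had 386.1, 364.6 and 374.1 CPM in ERMAP shRNA and 286.3, 377.9 and 347.7 CPM in control. Here the groups overlapped, control replicate 1 was the low library, and the log2 value went to 0.04 without it, against 0.15 with it. Mcm6 showed the other pattern, with 363.4, 394.8 and 356.8 CPM in ERMAP shRNA and 374.3, 343.8 and 326.8 CPM in control. Its log2 fold change was 0.09 with control replicate 1 and 0.14 without it (adjusted p = 0.938 and 0.273), and in the second case the groups did not overlap. Mcm2, Mcm4 and Mcm7 had log2 fold changes of 0.13, 0.06 and 0.09, and 0.03, 0.12 and 0.02 without control replicate 1. Mcm7 overlaps Cops6 on the opposite strand, whose reads could be shared where counting ignores strand.

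Because a working helicase holds the 6 subunits in equal number, their proportions were compared on the FPKM scale, which divides by gene length. Mcm3 made up 23.3% ± 0.574 of the summed MCM2-7 FPKM in ERMAP shRNA and 22.4% ± 0.536 in control, and Mcm5 21.8% ± 0.592 and 21.4% ± 2.05 (SD, n = 3 each). Mcm6 held 18.5% ± 0.945 in ERMAP shRNA and 19.0% ± 2.04 in control, Mcm7 14.0% ± 0.131 and 14.3% ± 0.748, Mcm4 13.0% ± 0.536 and 13.6% ± 1.61, and Mcm2 9.31% ± 0.280 and 9.25% ± 0.755. Each of these differences between group means was under the larger SD except that of Mcm3. Taken over control replicates 2 and 3 alone, the control shares were 22.5% for Mcm3, 22.5% for Mcm5, 17.8% for Mcm6, 14.7% for Mcm7, 12.8% for Mcm4 and 9.68% for Mcm2, so the direction turned for Mcm5, Mcm6, Mcm4 and Mcm2. These shares depend on the deposited gene lengths, which exceed the longest annotated transcript in 27 of 28 members. For Mcm2 the deposited length is 6956 bases against 3494, and for Mcm4 both are 3589, so unequal shares do not show unequal numbers of transcripts.

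Promoter sequences were compared because many of these genes are textbook E2F targets. RefSeq promoter windows on GRCm38.p6, from 250 bases before to 50 after the start, were found for 22 of the 28 genes, in 25 windows. The letters TTTCCCGC, TTTCGCGC, TTTGCCGC or TTTGGCGC, searched on both strands, occurred in 8 of the 25 windows (32%), those of Cdc6, Cdt1, Mcm3, Mcm5, Mcm6, Mcm7, Pola1 and Uhrf1, and in 2.26% of all 32851 windows. The letters CCAAT on either strand occurred in 64% of the members' windows and in 37.4% of all windows. Windows of other replication pathway genes, described below, held the E2F letters in 26 of 109 (23.9%) and CCAAT in 43.1%. The 4 windows of helicase subunits that hold E2F letters are shown 5′ to 3′ along the gene, with those letters in capitals. They lie at chr1:20820263-20820562 (minus strand) for Mcm3, chr8:75109259-75109558 (plus strand) for Mcm5, chr1:128359656-128359955 (minus strand) for Mcm6 and chr5:138171834-138172133 (minus strand) for Mcm7.
Mcm3: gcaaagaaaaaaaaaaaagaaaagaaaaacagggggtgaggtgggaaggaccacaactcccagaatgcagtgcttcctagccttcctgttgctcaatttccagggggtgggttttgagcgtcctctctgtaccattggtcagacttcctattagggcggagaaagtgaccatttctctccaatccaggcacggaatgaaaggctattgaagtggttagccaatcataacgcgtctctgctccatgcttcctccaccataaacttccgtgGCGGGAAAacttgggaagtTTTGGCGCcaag
Mcm5: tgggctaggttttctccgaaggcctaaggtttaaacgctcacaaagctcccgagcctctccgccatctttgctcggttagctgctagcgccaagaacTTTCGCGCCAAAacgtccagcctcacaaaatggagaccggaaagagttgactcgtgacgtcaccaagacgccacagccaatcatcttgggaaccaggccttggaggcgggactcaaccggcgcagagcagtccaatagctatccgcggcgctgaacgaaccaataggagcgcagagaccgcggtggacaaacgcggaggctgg
Mcm6: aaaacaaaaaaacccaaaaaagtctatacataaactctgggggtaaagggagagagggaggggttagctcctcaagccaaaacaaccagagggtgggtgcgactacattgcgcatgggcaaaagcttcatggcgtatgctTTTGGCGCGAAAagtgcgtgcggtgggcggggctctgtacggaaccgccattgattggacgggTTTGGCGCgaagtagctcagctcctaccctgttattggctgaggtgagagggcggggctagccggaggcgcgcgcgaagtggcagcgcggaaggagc
Mcm7: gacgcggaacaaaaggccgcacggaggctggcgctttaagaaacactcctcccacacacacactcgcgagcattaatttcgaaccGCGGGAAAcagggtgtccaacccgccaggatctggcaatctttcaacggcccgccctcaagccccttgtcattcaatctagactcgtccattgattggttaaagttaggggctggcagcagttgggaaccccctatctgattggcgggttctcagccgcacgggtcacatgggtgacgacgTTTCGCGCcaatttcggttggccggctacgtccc
In Mcm5 the 2 matches, on opposite strands, overlap, as do the first 2 of the 3 matches in Mcm6, while in Mcm3 both lie just after the start. A match of letters is not evidence of binding, and these 4 genes had small log2 fold changes, from 0.09 to 0.19.

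Helicase loading and activation genes were at similar levels in both groups, with 0 of 4 called and a median log2 fold change of 0.15, and 0.06 without control replicate 1. Cdc6, the ATPase that helps load MCM rings, had 57.1, 58.8 and 64.7 CPM in ERMAP shRNA and 54.8, 52.9 and 56.8 CPM in control. The groups just missed each other, with a log2 fold change of 0.13 in both fits (adjusted p = 0.937 and 0.482). Cdt1, the loading factor that cells destroy once S phase begins, had 171.3, 180.8 and 178.3 CPM in ERMAP shRNA and 113.5, 178.2 and 183.1 CPM in control. Control replicate 1 alone was low, and the log2 value of 0.16 with it was -0.04 without it (95% interval -0.17 to 0.10). The FPKM ratio of Cdt1 to Gmnn, which encodes its inhibitor geminin, was 1.18 ± 0.0565 in ERMAP shRNA and 1.05 ± 0.245 in control (SD, n = 3 each). It was 0.770 in control replicate 1, and the mean of the other controls, 1.19, lay above that of ERMAP shRNA. Cdc45, part of the running helicase, had a log2 fold change of 0.06 and Gins2, a GINS subunit, of 0.18, and 0.02 and 0.10 without control replicate 1. Genes on the opposite strand overlap both of them (Ufd1 and Gse1), and since strand use in counting is not given in the sources used here, reads of such partners cannot be told apart.

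Among cyclins and E2F, Ccnd1 had the largest positive log2 fold change of the 28 genes in edgeR over 6 libraries, and it did not pass the test. Fen1 was above it in limma-voom (0.33 against 0.27), as was Tyms in edgeR with GC offsets (0.27 against 0.25). Ccnd1 encodes cyclin D1, the partner of Cdk4 and Cdk6 (chromosome 7, 144929931 to 144939925, minus strand). Its level was 526.8, 511.3 and 513.7 CPM in ERMAP shRNA and 370.2, 465.5 and 454.0 CPM in control, so every ERMAP shRNA library was above every control library. Over 6 libraries edgeR gave a log2 value of 0.27 (SE 0.11, 95% interval 0.02 to 0.52, adjusted p = 0.666), and 0.16 (SE 0.06, 0.04 to 0.29, adjusted p = 0.146) over 5. With limma-voom library weights, which gave control replicate 1 a weight of 0.0903, Ccnd1 was called higher at 0.19 (adjusted p = 0.0303), and with GC offsets over 5 libraries, chosen after the data were seen, at 0.19 (edgeR adjusted p = 0.0376). Its call thus differed between fits, for a reason that was not tested, while its direction held in each of these fits. The weighted fit also gave control replicate 2 a weight of 0.772 and control replicate 3 a weight of 3.26.

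The 2 cyclins E, which activate Cdk2 at S phase entry, differed in how far they followed control replicate 1. Ccne1 had 40.7, 40.7 and 42.4 CPM in ERMAP shRNA and 34.4, 38.6 and 38.8 CPM in control, a log2 fold change of 0.15 with and 0.09 without control replicate 1. Ccne2 (chromosome 4, 11191351 to 11204779, plus strand) had 37.3, 44.7 and 37.9 CPM in ERMAP shRNA and 64.4, 33.8 and 31.3 CPM in control. Control replicate 1 held 1.98 times the mean of the other controls. With it the log2 fold change of Ccne2 was -0.11 (95% interval -0.73 to 0.51, adjusted p = 0.96), and without it 0.29 (SE 0.10, 0.08 to 0.50, edgeR adjusted p = 0.111), the largest of the 28 in that fit. The FPKM ratio of Ccne1 to Ccne2 was 1.37 ± 0.148 in ERMAP shRNA and 1.28 ± 0.502 in control (SD, n = 3 each), with 0.702 in control replicate 1 and a mean of 1.56 in the other controls, above that of ERMAP shRNA. Ccne2 overlaps Ints8 on the opposite strand. E2f1, the E2F factor that drives many of these genes, had 78.2, 81.6 and 83.6 CPM in ERMAP shRNA and 56.8, 88.5 and 79.9 CPM in control, and its log2 value was 0.11 with and -0.06 without control replicate 1.

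**Figure D1:**
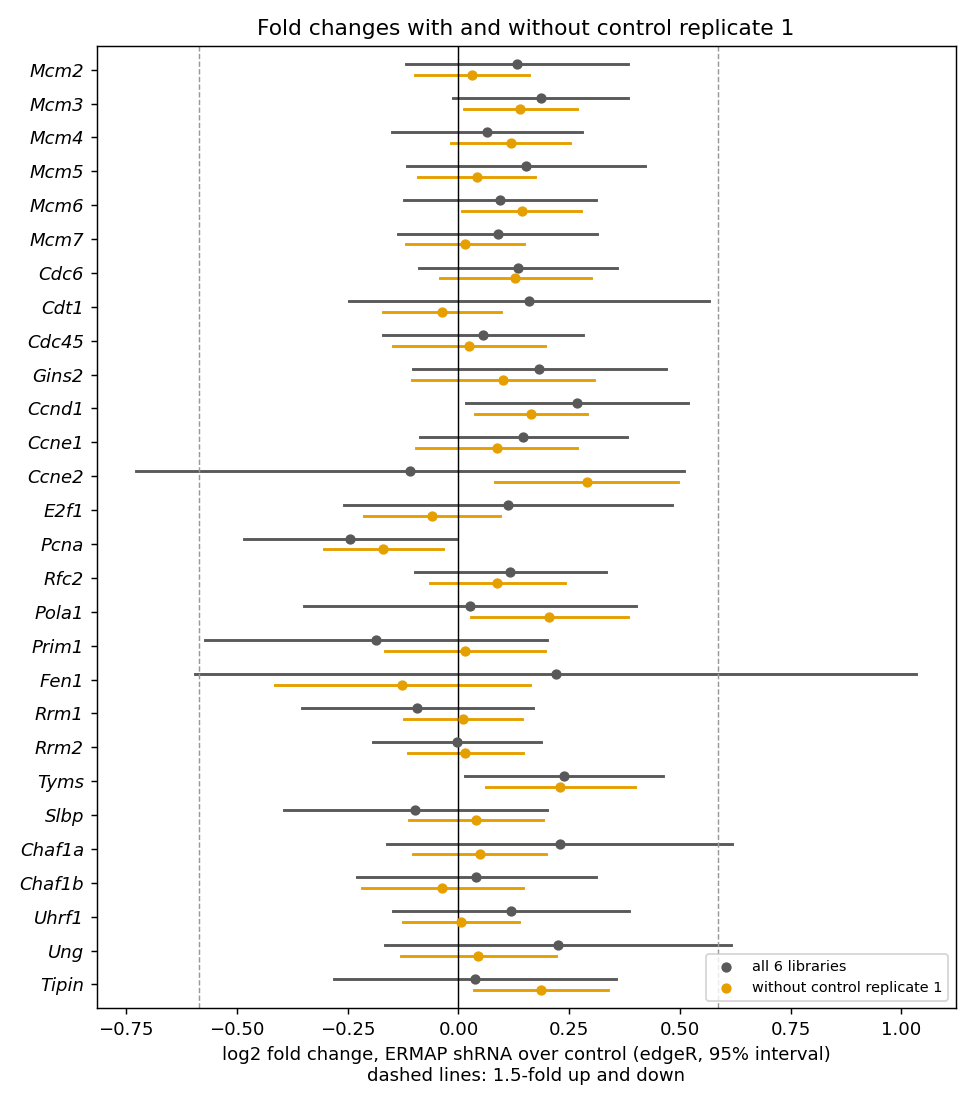
Fold changes of the 28 genes as log2 of ERMAP shRNA over control, with 95% intervals from edgeR, in grey over 6 libraries and in orange without control replicate 1; dashed lines mark 1.5-fold. All 28 orange intervals and 24 of 28 grey intervals lie between the dashed lines, and Ccne2 and Fen1 move furthest between the fits.

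Pcna was the member with the lowest log2 fold change in edgeR over 6 libraries and also the most abundant per length. It encodes the sliding clamp that holds polymerases on DNA (chromosome 2, 132249162 to 132253314, minus strand). Pcna had 438.5, 423.4 and 461.6 CPM in ERMAP shRNA and 580.6, 471.5 and 516.8 CPM in control, so all ERMAP shRNA libraries were below all controls. In edgeR its log2 value was -0.25 (SE 0.10, 95% interval -0.48 to -0.01, adjusted p = 0.713) over 6 libraries and -0.17 (-0.30 to -0.04, adjusted p = 0.162) over 5. With library weights it was called lower, at -0.19 (adjusted p = 0.0438). Pcna-ps2, a near copy by name, held 336 counts in all against 43221 for Pcna.

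The other clamp, primase and lagging strand genes showed no call. Pola1, the catalytic subunit of polymerase alpha, had 79.6, 93.6 and 75.2 CPM in ERMAP shRNA and 101.0, 71.6 and 71.4 CPM in control, and its log2 value was 0.03 with and 0.21 without control replicate 1 (adjusted p = 0.982 and 0.208). Prim1, the primase subunit that makes the RNA primer, had 44.4, 51.6 and 48.2 CPM in ERMAP shRNA and 69.4, 46.7 and 48.1 CPM in control. Its log2 value was -0.19 with and 0.02 without control replicate 1, which was again the high library. Rfc2, part of the clamp loader, had log2 values of 0.12 and 0.09, and overlaps Lat2 on the opposite strand. Fen1, the flap nuclease of Okazaki fragment processing, was the least abundant member, with 15.9, 12.2 and 16.8 CPM in ERMAP shRNA and 5.95, 16.8 and 15.7 CPM in control. Its interval was the widest of the 28, -0.59 to 1.03 around 0.22, and without control replicate 1 the value was -0.13. Fen1 shares its position with Tmem258 on the opposite strand, which had 4416 counts in all against 1252 for Fen1, so its level is uncertain.

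Nucleotide supply genes included Tyms, higher in every ERMAP shRNA library without passing the test. Tyms, thymidylate synthase, makes dTMP (chromosome 5, 30058202 to 30073617, minus strand) and had 72.9, 74.5 and 64.7 CPM in ERMAP shRNA and 59.7, 58.8 and 61.2 CPM in control. Its control libraries lay close together, control replicate 1 included, and edgeR gave a log2 value of 0.24 (SE 0.10, 95% interval 0.02 to 0.46, adjusted p = 0.666) over 6 libraries and 0.23 (0.06 to 0.40, adjusted p = 0.121) over 5. Rrm2, the S phase subunit of ribonucleotide reductase, had 220.0, 210.6 and 211.3 CPM in ERMAP shRNA and 221.6, 211.9 and 209.6 CPM in control. The groups covered each other, and the 95% interval of its log2 fold change was -0.19 to 0.19. Rrm1, the large subunit, had 403.1, 426.6 and 384.1 CPM in ERMAP shRNA and 494.3, 407.3 and 392.6 CPM in control, at -0.09 with and 0.01 without control replicate 1. The Rrm1 to Rrm2 ratio in FPKM was 0.476 ± 0.0291 in ERMAP shRNA and 0.505 ± 0.0487 in control (SD, n = 3 each), and control replicates 2 and 3 alone averaged 0.478.

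The genes for chromatin assembly, histone mRNA, repair and fork protection gave 0 calls of 6 and a median log2 fold change of 0.08, and 0.04 without control replicate 1. Chaf1a, the large subunit of the histone chaperone CAF-1, had 119.8, 107.8 and 123.4 CPM in ERMAP shRNA and 74.1, 115.4 and 110.1 CPM in control, and its log2 value of 0.23 was 0.05 without control replicate 1. It overlaps Ubxn6 on the opposite strand. Ung, the uracil DNA glycosylase, had 48.8, 45.8 and 50.9 CPM in ERMAP shRNA and 30.8, 46.7 and 46.9 CPM in control, at 0.22 and 0.05. In both, control replicate 1 was the only library far from the rest. Tipin, a fork protection factor that works with Timeless, had 124.9, 132.8 and 115.0 CPM in ERMAP shRNA and 146.1, 108.0 and 109.4 CPM in control, with a log2 value of 0.04 with control replicate 1 and 0.19 without it (edgeR adjusted p = 0.969 and 0.171). Slbp, which binds the stem-loop of histone mRNA, had -0.10 and 0.04, Uhrf1, which guides Dnmt1 to new DNA, 0.12 and 0.01, and Chaf1b, the middle CAF-1 subunit, 0.04 and -0.04.

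The way control replicate 1 deviated in these genes followed base composition. It was the highest of 6 libraries in 8 members, with transcript GC contents of 36.3% to 46.0%, and the lowest in 15, with 48.3% to 58.3%. Mcm4, Mcm6, Cdc6, Rfc2 and Tyms, in which it was neither, had 45.5% to 50.5%. Across the 28 genes, its log2 deviation from the other controls had a Pearson r of -0.85 with GC content (Spearman rho -0.89), and across 12476 tested genes r was -0.71 (rho -0.74). These are descriptions across genes of the same libraries. Over all tested genes, 72.4% had control replicate 1 as the highest or lowest library. ERMAP shRNA replicate 2 deviated the same way from the other 2 of its group, more weakly (r = -0.59 across the 28 genes). The members' log2 fold changes themselves had r = 0.64 with GC content over 6 libraries and -0.48 without control replicate 1, and 9 members changed sign between those fits. With a GC offset for each library the median log2 fold change of the 28 was 0.11 over 6 libraries and 0.07 over 5.

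**Figure D2:**
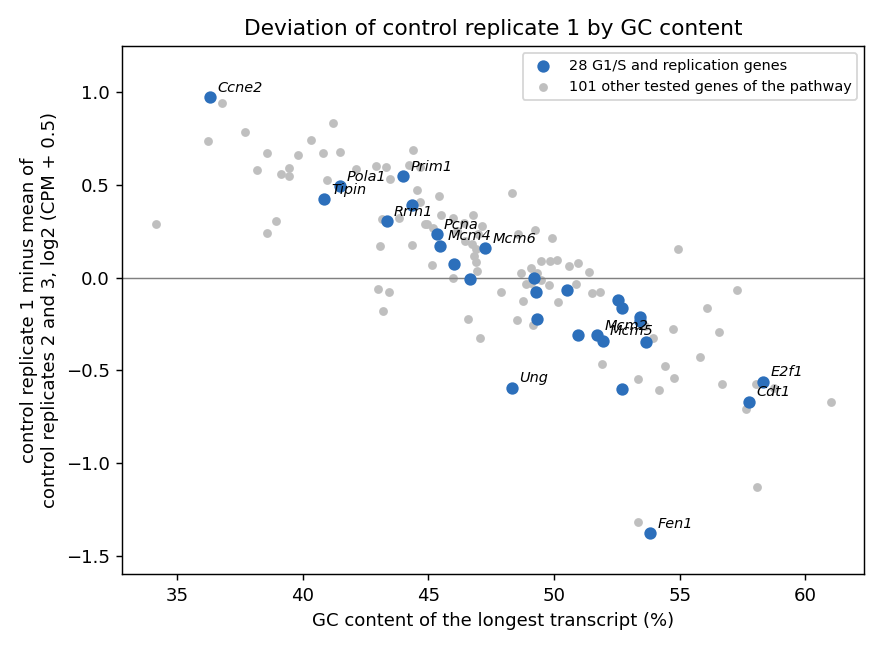
GC content of the longest transcript (%) against the deviation of control replicate 1 from the mean of control replicates 2 and 3 in log2(CPM + 0.5), with the 28 genes in blue and other tested pathway genes in grey. Ccne2, at 36.3% GC, lies highest of the blue points, and E2f1, at 58.3% GC, lies well below 0.

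Levels per length were compared as FPKM. Averaged over the 6 libraries, Pcna stood first at 199.3 FPKM, followed by Ccnd1 at 99.8, Mcm3 at 93.6, Mcm5 at 88.5, Rrm2 at 76.7 and Mcm6 at 76.6. Pcna did not overlap any other member in any library, whereas the ranges of Ccnd1, Mcm3 and Mcm5 overlapped, as did those of Rrm2 and Mcm6. At the low end stood Pola1 at 9.24, Ung at 8.17, Gins2 at 7.48 and Fen1 at 5.70 FPKM. Only Fen1 lay below 7.29 FPKM, the median of all tested genes.

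**Figure D3:**
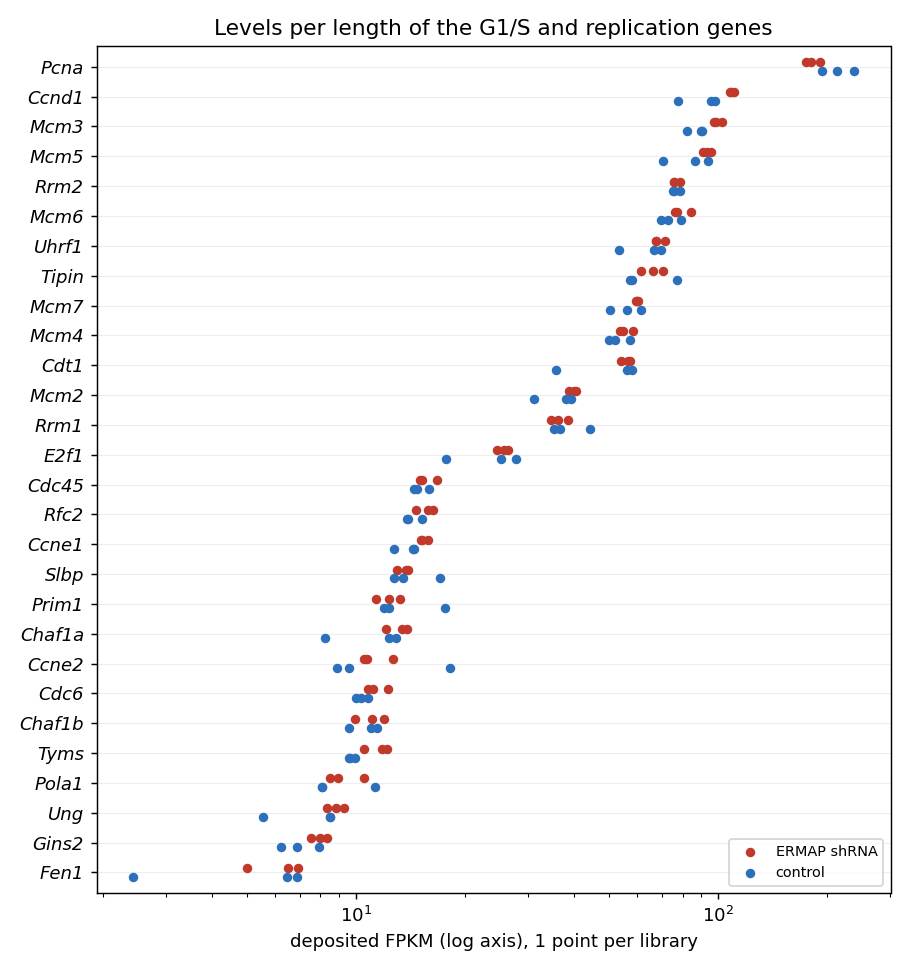
Deposited FPKM of each of the 28 genes on a log axis, 1 point per library, ERMAP shRNA in red and control in blue, ordered by the mean over 6 libraries. Pcna lies at 199.3 FPKM and Fen1 at 5.70 on average, and the colours overlap in most rows.

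Other genes of the pathway were taken from lists of 104 genes for licensing, firing, polymerases, nucleotides, G1/S control, chromatin and the S phase checkpoint. Of these, 101 were tested. Over 6 libraries edgeR and DESeq2 each called 1 higher and 0 lower, with 3 higher and 2 lower by unadjusted p in edgeR, and the median log2 fold change was 0.02. That is 1 call in 101, against 1.01% of all tested genes called higher in edgeR and 202 of 12491 in DESeq2. By unadjusted p in edgeR, 3.71% of all tested genes were higher and 3.04% lower. Over 5 libraries 3 were called higher and 0 lower, with 2.67% of all tested genes called higher, so the share is near the background. By unadjusted p 21 were then higher and 4 lower, against 7.81% and 8.54% of all tested genes, and the median was 0.06. The 3 other listed genes, the Cdk inhibitor genes Cdkn1c, Cdkn2a and Cdkn2b, had 0 counts in every library, which allows up to 0.0334 CPM over the 6 together.

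Ccnd2, encoding cyclin D2, was the pathway gene that rose in both fits. It lies on chromosome 6 from 127125162 to 127152193 on the minus strand. Ccnd2 had 11.9, 13.2 and 11.6 CPM in ERMAP shRNA and 3.32, 2.47 and 2.84 CPM in control, and the groups were far apart. In edgeR its log2 value was 2.09 (SE 0.18, 95% interval 1.69 to 2.50, adjusted p = 0.00069) and 2.20 (adjusted p = 1.16e-08) without control replicate 1. Cyclin D2 transcript remained a minor part of the family: per length it made up 1.01% ± 0.0801 of summed Ccnd1, Ccnd2 and Ccnd3 FPKM in ERMAP shRNA and 0.294% ± 0.0861 in control, against 85.0% and 85.7% for Ccnd1 (n = 3 each). The ratio of Ccnd1 to Ccnd2 in FPKM was 84.8 ± 6.27 in ERMAP shRNA and 306.4 ± 77.8 in control (SD, n = 3 each), with a mean of 348.1 over control replicates 2 and 3.

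Among the 10 other nucleotide supply genes, Dck and Samhd1 rose in the fit without control replicate 1. Dck, deoxycytidine kinase of the salvage pathway, had 133.8, 143.8 and 133.4 CPM in ERMAP shRNA and 135.8, 86.5 and 92.1 CPM in control, where control replicate 1 sat among the ERMAP shRNA values. Its log2 fold change was 0.39 (95% interval -0.01 to 0.78, edgeR adjusted p = 0.762) over 6 libraries and 0.61 (0.46 to 0.76, adjusted p = 2.05e-06) over 5, and 0.49 with GC offsets over 6 (adjusted p = 0.0018). Samhd1, the dNTP hydrolase that also restricts viruses, had 191.6, 195.6 and 195.8 CPM in ERMAP shRNA and 164.4, 162.2 and 160.8 CPM in control, tight in both groups and not overlapping. Its log2 fold change was 0.26 in both fits (adjusted p = 0.369 over 6 libraries and 0.014 over 5), and GC offsets over 6 also called it (adjusted p = 0.0253). Rrm2b, the p53-inducible small subunit of ribonucleotide reductase, had 10.8, 12.0 and 11.2 CPM in ERMAP shRNA and 22.3, 14.4 and 14.9 CPM in control, a log2 value of -0.60 (adjusted p = 0.409) and -0.38 (0.124) without control replicate 1. With GC offsets over 5 libraries Rrm2b was called lower (-0.44, adjusted p = 0.039).

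**Figure D4:**
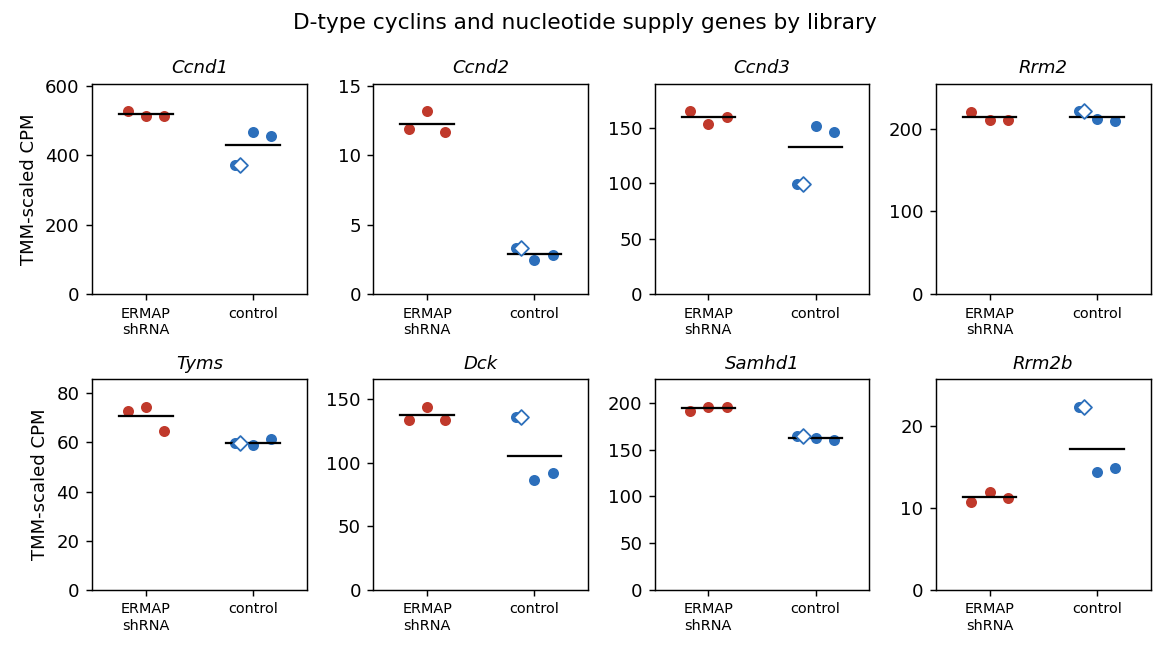
TMM-scaled CPM of D-type cyclins and nucleotide supply genes, 1 point per library with group means as lines, ERMAP shRNA left and control right, control replicate 1 as an open diamond. Ccnd2 lies at 11.6 to 13.2 CPM in ERMAP shRNA against 2.47 to 3.32 CPM in control, while the 2 groups of Rrm2 cover each other.

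The remaining lists gave 0 calls in both fits. Median log2 fold changes over 6 libraries were -0.05 for licensing, 0.03 for origin firing, 0.03 for polymerases and fork proteins, -0.01 for chromatin assembly and DNA methylation, and 0.03 for the checkpoint. Over 5 libraries the medians of the same lists were 0.08, 0.10, -0.01, 0.18 and 0.16, so the sign turned for licensing, for polymerases and for chromatin assembly. In the chromatin list 6 of 11 genes were then higher by unadjusted p, against 7.81% of all tested genes, with 0 called. The most abundant members were Gmnn (geminin) at 0.00, Gins4, a GINS subunit, at -0.01, Pclaf, a Pcna-binding protein, at 0.05, Dnmt1, the maintenance methyltransferase, at 0.19, and Rad9a, of the checkpoint clamp, at 0.09. Cks1b, a Cdk-binding protein and the most abundant of G1/S control, had 0.10, and Cmpk1, a nucleotide kinase, -0.11. The members furthest from 0 were Orc2 of the origin recognition complex at -0.25, Recql4, a helicase needed for firing, at 0.25, Pold4, the small subunit of polymerase delta, at -0.33, and Atr, the checkpoint kinase, at -0.13. None of these 11 passed the test with edgeR (adjusted p from 0.568 to 0.998), nor without control replicate 1. For comparison, 22 genes of G2/M and mitosis gave 0 calls in both fits, with 0 higher and 3 lower by unadjusted p in each (3.04% of all tested genes were lower over 6 libraries and 8.54% over 5) and medians of -0.01 and -0.04. With GC offsets over 6 libraries 1 of them was called lower, Cenpf, a kinetochore-linked protein of G2 and mitosis (log2 -0.48, edgeR adjusted p = 0.0277). Over 5 libraries GC offsets also called 1 of the 22 lower (edgeR adjusted p = 0.0295).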

How the data were processed

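RNA was measured in 3 libraries labelled ERMAP shRNA and 3 control libraries of RAW264.7, prepared with the NEBNext Ultra kit per the labels' protocols. The authors deposited whole read counts by gene, and FPKM values that equal count over gene length and over a library constant within -0.154% to 1.20% of the library's total count. The submitters' processing notes name HISAT2 and mm10. Which program counted reads, with which strand setting and annotation release, is not given in the sources used here. Columns show a group and a number, and could not be tied to single samples, since titles of a group begin alike; replicate numbers are column numbers. Coordinates are those of the deposited table, and all 28 members have the same coordinates in GENCODE vM21, from whose longest transcripts GC content was taken.

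The main test was edgeR 4.0.16 quasi-likelihood on counts (R 4.3.3, limma 3.58.1), using TMM factors, a filterByExpr minimum count of 10 and robust dispersion, with p-values adjusted by Benjamini-Hochberg over all tested genes. A gene was called, and said to rise or fall, at an adjusted p under 0.05. CPM are TMM-scaled. Alternatives were other size factors, no filter, DESeq2 1.42.0, limma-voom with and without library weights, limma-trend on log2 FPKM with 1 or 0.1 added, GC offsets (lowess span 0.3), a replicate block, and each library left out in turn. The edgeR script was tested on simulated data. Libraries of a group differed by more than sampling noise (chi-square per degree of freedom 3.348 to 67.21 over genes). Of the 28 members, 14 overlap another gene, and in 7 the partner has at least 10% of the member's counts.

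The members and gene lists were chosen with earlier results of these data known. Named beside the members are Ermap and, of each pathway list, every gene called in either fit, the most abundant gene and the gene with the largest change. For G2/M genes, counts and medians are given, and Cenpf is named for its call with GC offsets. Marker lists check the cell type, and of them Fcgr1, Lyz2 and Itgam are named.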

Additional observations from a re-analysis of the deposited data

How the results depend on the processing

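The count of called members was 0 in each direction under every alternative except library weights, which gave 1 higher (Ccnd1) and 1 lower (Pcna), and GC offsets over 5 libraries, which gave 1 (Ccnd1). Over all tested genes, GC offsets called 271 higher and 144 lower of 12491 over 6 libraries. Over 5 libraries they called 432 higher and 291 lower of 12793. The count over all genes with library weights is not given here. Other pathway genes called were 3 higher and 1 lower with library weights, 3 higher with GC offsets, and 1 to 3 higher as each library was left out, the 3 being without control replicate 1. With GC offsets over 5 libraries 4 pathway genes were called higher and 1 lower. The members' median log2 fold change was lowest, 0.043, without control replicate 1 and highest, 0.155, without control replicate 2. With library weights, log2 values of opposite sign were -0.038 for Cdt1, 0.26 for Ccne2, -0.0023 for Fen1, 0.0060 for Rrm1, 0.032 for Rrm2, 0.0043 for Slbp, -0.074 for Chaf1b, -0.024 for Gmnn, 0.047 for Atr and -0.10 for Rad9a. GC offsets gave 0.14 for Ccne2, 0.036 for Rrm2, -0.0053 for Gmnn, 0.047 for Cmpk1 and 0.011 for Atr. Rrm2 was 0.0020 with no filter and 0.0023 on both FPKM scales, and Gmnn -0.00062 with RLE factors, -0.0071 with upper-quartile factors and -0.00068 with DESeq2. Leaving out 1 library at a time gave the log2 ranges Cdt1 -0.037 to 0.28, Ccne2 -0.29 to 0.29, E2f1 -0.060 to 0.24, Pola1 -0.078 to 0.21, Prim1 -0.29 to 0.015, Fen1 -0.13 to 0.46, Rrm1 -0.15 to 0.011, Rrm2 -0.020 to 0.016, Slbp -0.19 to 0.039, Chaf1b -0.036 to 0.11, Tipin -0.044 to 0.19, Orc2 -0.42 to 0.011, Gmnn -0.017 to 0.028, Gins4 -0.042 to 0.024, Pclaf -0.013 to 0.16, Cmpk1 -0.25 to 0.091, Atr -0.27 to 0.13, Rad9a -0.079 to 0.22. The cause of these changes was not tested. Control replicate 1 has a weight of 0.0903 where weights are used and none where it is left out.

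Whether column numbers pair the libraries was not settled. Same-numbered deviations correlated at -0.13, -0.28 and 0.18, and differently numbered ones at -0.25 to 0.34. Deviations from a group mean are tied to each other, and control replicate 1 stands apart, so these values cannot decide it. With the number as a replicate block, 0 members were called higher and 0 lower, 1 pathway gene was higher and 0 lower, the members' median was 0.12, and over all genes 81 were higher and 3 lower. Over 6 libraries the intervals of Ccne2, Fen1, Chaf1a and Ung reached past 1.5-fold, so a change of that size is not excluded for them by these data.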
